A study of Mus musculus with 15 samples.

Results

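Growth hormone acts on the liver through a short chain of proteins, and 10 genes along it were followed here. They are Ghr (the receptor), Stat5a and Stat5b (the relay to the nucleus), Socs2 and Cish (feedback inhibitors), Igf1 and Igfals (secreted targets), and Mup3, Mup4 and Mup5 (major urinary proteins). They were taken by gene name from the 27343 genes of an Agilent 1-colour mouse array, which carried 22 probes for them among 41174, and all 10 were found. The groups were mHep, expandable hepatocytes in the differentiation medium, eHep, the same cells in the expansion medium, and primary hepatocytes. Both cultures came from the livers of 3 mice and were kept in their medium for 21 days. Mouse C57B6-No1 of strain C57B6 and mouse 129S1-No1 of strain 129S1 gave 3 arrays per medium, and mouse 129S1-No2, also of strain 129S1, gave 1 per medium. The primary hepatocytes, freed from C57B6 livers by collagenase perfusion in 2 steps, gave 1 array, and how many mice it stands for is not given in the sources used here. The labels did not spell out mHep, which was read as the cells in differentiation medium, and they gave no sex, no age and no recipe for either medium, so that any growth hormone or glucocorticoid in them is unknown. For the 1 mHep array of 129S1-No2 the source name read eHep while the title read mHep, and the title was followed, so the calls among the 3 groups were also made with that mouse left out.

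In the liver, growth hormone binds Ghr at the cell surface, the kinase Jak2 bound to it phosphorylates STAT5, and STAT5 dimers enter the nucleus and bind the sequence TTCNNNGAA near target genes. Igf1 and Igfals encode the growth factor and the acid-labile subunit that keeps it in the circulating complex, and Cish and Socs2 are induced within the same pathway and dampen it. The major urinary proteins are small pheromone-carrying lipocalins made by the mouse liver and excreted in urine, more in males, whose growth hormone comes in pulses, than in females.

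The urinary protein genes are close copies of each other, so the probes that separate them are shown with their position in mm9, the build named in the file headers. The first 3 are the probes of Mup3, Mup4 and Mup5, and the last 2 are probes of Mup1 and Mup8, which have the longest stretch in common, given in capitals.
Mup3: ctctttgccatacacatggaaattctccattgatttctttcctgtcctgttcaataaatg
Mup4: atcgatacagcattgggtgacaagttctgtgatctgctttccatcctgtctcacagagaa
Mup5: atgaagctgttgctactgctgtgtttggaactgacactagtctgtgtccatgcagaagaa
Mup1: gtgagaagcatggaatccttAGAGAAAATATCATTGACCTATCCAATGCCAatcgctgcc
Mup8: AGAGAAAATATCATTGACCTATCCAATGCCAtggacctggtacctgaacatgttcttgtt
All are written 5′ to 3′ and lie on the minus strand of chromosome 4, at chr4:61744500-61744548 for Mup3 (49 of its 60 bases), chr4:59969824-59969883 for Mup4, chr4:61496097-61496156 for Mup5, chr4:60511965-60512188 for Mup1 and chr4:60232592-60232774 for Mup8. The Mup1 and Mup8 probes cover 224 and 183 bases of the genome and so cross an intron. The shared stretch of the Mup1 and Mup8 probes was 31 bases long. The probes of Mup3, Mup4 and Mup5 shared at most 7 bases in a row with the probe of any other Mup gene on the array. Copies of these genes without a probe of their own could still contribute to any of these signals.

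A level is the log2 of the processed signal minus the 75th percentile of the same array, so a level of 0 is the signal at that percentile. A reading that the scanner software did not mark as well above background is called dark. Each gene is described by its probe with the highest mean level. For the label check, Alb (albumin) lay between 6.36 and 8.45 in mHep, between -3.85 and 1.76 in eHep, and at 11.57 in primary hepatocytes, and 3 to 5 of 7 hepatocyte markers measured were above background on each eHep array, against 6 or 7 in mHep and all 7 in primary hepatocytes. The biliary keratins Krt19 and Krt7 were above background on all 14 cultured arrays and dark on the primary array. The biliary marker Sox9 was above background on all 14 cultured arrays and on the primary array too. Its primary level lay inside the mHep range and below all 7 eHep arrays. Epcam, also biliary, was above background on 7 of 7 mHep and 4 of 7 eHep arrays and dark on the primary array. The summed signal of the 7 hepatocyte markers, in multiples of the 75th percentile, was 98.2 to 520.4 in mHep, 1.27 to 8.26 in eHep and 4875 in primary hepatocytes, and that of the 4 biliary markers was 139 to 706 in mHep, 145 to 604 in eHep and 3.01 in primary hepatocytes. The part of these cell states in the results below was not tested. The primary array was the dimmest, with 36.3% of probes well above background against 48.8% to 61.9% on the cultured arrays, and differences from it depend on the scaling. The share of called genes that were higher in culture was 40.5% for mHep and 38.2% for eHep here, 61.6% and 57.1% with quantile scaling, 51.9% and 49.7% with median scaling, and 54.1% and 49.2% with the percentile taken over probes seen on every array. It was 29.7% in mHep with normexp background correction. Quantile scaling moved the median of all genes against the primary array to 0.22 in mHep and 0.29 in eHep, where it was -0.29 and -0.13 here. Between mHep and eHep 75.3% of called genes were higher here, 67.9% with median scaling, 85.5% with quantile scaling and 91.4% with probes seen on every array.

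Between mHep and eHep, arrays were averaged per mouse and limma was fitted on 6 means with mouse as a block, a gene being called at an adjusted p under 0.05. Of the 10 genes, 8 passed the filter on dark readings and were tested. Mup4 and Mup5 were called, 2 of 8 where 1.83% of all genes were called, and both were higher in mHep, against 1.38% of all 14597 genes tested called higher. Both passed the filter only through mHep, the medium where they were higher, so the filter favoured that direction. None of the 8 was called lower, against 0.452% of all genes. At an unadjusted p under 0.05, 2 were higher and 1, Igf1, was lower. Without mouse 129S1-No2, 4 were called, where 6.08% of all genes were, Igf1 and Cish as lower in addition. The median difference of the 8 was 0.39, against -0.10 over all genes.

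Ghr, the gene with which the chain starts, was measured on every array and was called lower in both cultures than in primary hepatocytes. Its levels in mHep were 1.58, 1.40 and 0.68 in C57B6-No1, 2.32, 1.38 and 1.74 in 129S1-No1 and 2.11 in 129S1-No2. In eHep they were 0.96, 0.99 and 1.17 in C57B6-No1, 0.90, 1.02 and 0.87 in 129S1-No1 and -1.91 in 129S1-No2, and in primary hepatocytes the level was 6.66. The primary array was thus the highest by far, the mHep and eHep ranges overlapped, and the eHep array of 129S1-No2 stood well below the other 6 eHep arrays. The mean was 1.71 ± 0.45 in mHep and 0.02 ± 1.67 in eHep (SD, n = 3 mice). The difference between the media was 1.70 ± 0.77 (log2 ± SE) and did not pass (limma, adjusted p = 0.377), and without 129S1-No2 it was 0.53.

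Against the primary array, the 6 mouse means were compared with that 1 reading, with the spread borrowed from the cultured means, and a call also needed a 2-fold difference. Ghr was 30.8-fold lower in mHep (-4.95 ± 1.19, limma, adjusted p = 0.0454) and 99.8-fold lower in eHep (-6.64 ± 1.19, adjusted p = 0.0128). In such bulk samples, fewer hepatocytes and less RNA per hepatocyte cannot be told apart. The call in mHep was lost with quantile scaling (log2 difference -3.59, adjusted p = 0.101), with the authors' value table (adjusted p = 0.101), with median scaling (adjusted p = 0.0531), with the mean of its probes (log2 difference -2.88, adjusted p = 0.0564), and without 129S1-No1 (adjusted p = 0.063) or C57B6-No1 (adjusted p = 0.15). In eHep it was kept under each of these.

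**Figure D1:**
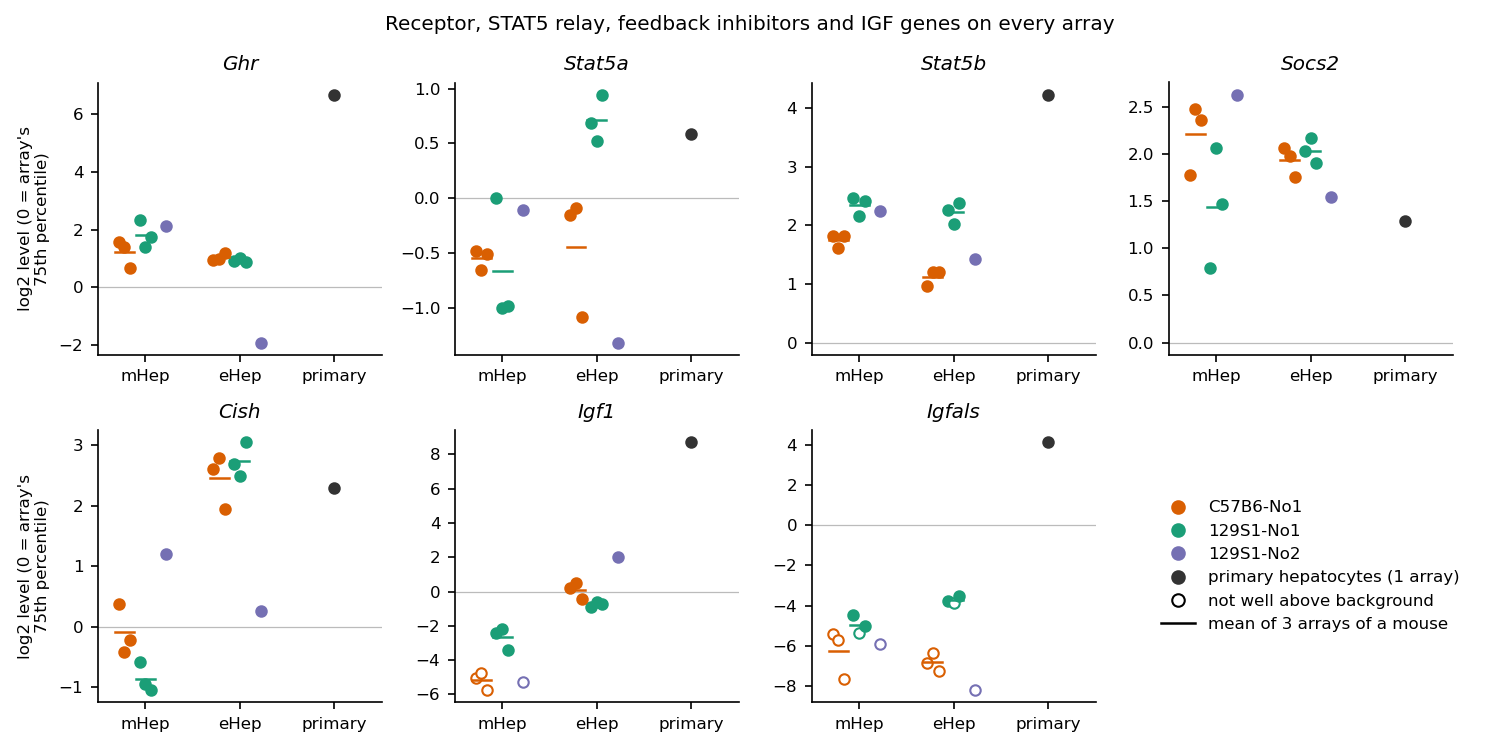
Log2 level of 7 genes on each of the 15 arrays, in mHep, eHep and primary hepatocytes, with 0 at the 75th percentile of the array. Colours mark the mice, open points are readings not well above background and lines are means of 3 arrays. Ghr, Igf1 and Igfals had their highest level on the primary array, and Igf1 was higher on each eHep array than on any mHep array.

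The array held 5 Ghr probes, and they did not give 1 answer on the size of the difference. Of these, 2 were designed on NM_001048178, a Ghr transcript, and 1 on NM_010284, another Ghr transcript. The following lines give the main probe and the NM_010284 probe, both 5′ to 3′ on the minus strand of chromosome 15, at chr15:3277988-3278047 and chr15:3268107-3268166.
A_52_P680935: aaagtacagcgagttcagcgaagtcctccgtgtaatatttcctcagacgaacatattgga
A_51_P499854: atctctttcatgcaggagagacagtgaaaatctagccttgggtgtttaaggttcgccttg
With all probes of the array tested singly, the NM_001048178 probes differed from the primary array by -4.95 ± 1.17 and -4.88 ± 1.14 in mHep and by -6.64 ± 1.17 and -6.67 ± 1.14 in eHep (log2 ± SE), and all 4 differences were called (limma, adjusted p from 0.0104 to 0.0445). The second of them covers 7453 bases of the genome and so crosses an intron. The NM_010284 probe differed by -1.86 ± 0.88 in mHep, which was not called (adjusted p = 0.221), and by -3.63 ± 0.87 in eHep, which was (adjusted p = 0.0336). The other two probes, on ENSMUST00000162993 and AK034547, were dark on 1 and 2 mHep arrays and on 5 eHep arrays each, and the AK034547 probe was dark on the primary array too. The differences between probes were not tested.

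**Figure D2:**
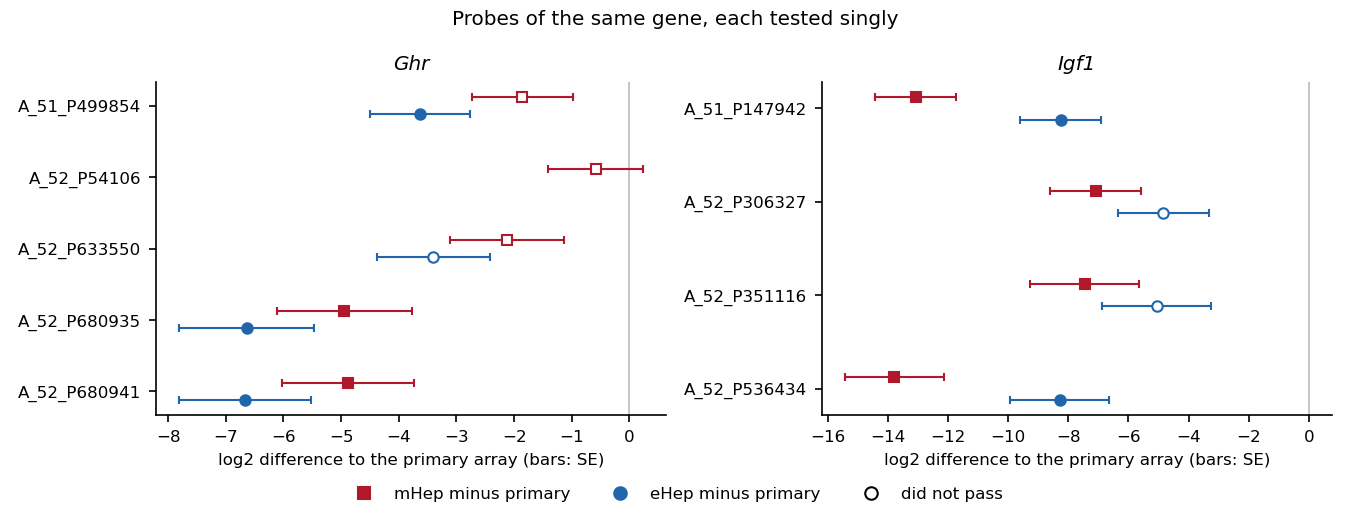
Log2 difference to the primary array for each probe of Ghr (left) and Igf1 (right), as squares for mHep and circles for eHep, with bars for the SE. Filled symbols passed the test over all probes. Ghr probes range from -0.59 to -4.95 in mHep.

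Stat5b, the more abundant of the pair in liver and the main carrier of the growth hormone signal there, was above background on every array. Its levels in mHep were 1.82, 1.61 and 1.81 in C57B6-No1, 2.48, 2.16 and 2.42 in 129S1-No1 and 2.25 in 129S1-No2. In eHep they were 0.96, 1.21 and 1.21 in C57B6-No1, 2.26, 2.02 and 2.39 in 129S1-No1 and 1.42 in 129S1-No2, and the primary array had 4.23. Each cultured array thus lay below the primary one, and mHep and eHep overlapped. Stat5b was 6.23-fold lower in eHep than in primary hepatocytes (-2.64 ± 0.63, limma, adjusted p = 0.0327), while its difference in mHep, -2.11 ± 0.63, did not pass (adjusted p = 0.0815). The eHep call was lost with quantile or median scaling, normexp background, the authors' value table and without C57B6-No1 or 129S1-No2, at adjusted p between 0.0537 and 0.177. Between the media its difference was 0.53 ± 0.39 (adjusted p = 0.596). Of its other probes, A_52_P663027 was dark on every array. Probe A_51_P281938 was dark on the primary array and, tested singly, was not called in eHep against it (-1.76 ± 0.87, adjusted p = 0.216).

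Stat5a, its close relative, showed no called difference in any comparison. It ranged from -1.01 to 0.00 in mHep and from -1.32 to 0.94 in eHep, and its level was 0.59 in primary hepatocytes. By mouse, the eHep levels were -0.15, -0.09 and -1.09 in C57B6-No1, 0.69, 0.52 and 0.94 in 129S1-No1 and -1.32 in 129S1-No2. The log2 difference was -0.09 ± 0.57 between the media (limma, adjusted p = 0.967), -1.03 ± 0.82 for mHep against primary hepatocytes and -0.94 ± 0.82 for eHep against primary hepatocytes.

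Cish and Socs2, the inhibitors that STAT5 itself induces, were called in no comparison between the 3 groups with all mice included. Cish levels in mHep were 0.37, -0.42 and -0.22 in C57B6-No1, -0.59, -0.95 and -1.05 in 129S1-No1 and 1.21 in 129S1-No2. In eHep they were 2.61, 2.80 and 1.95 in C57B6-No1, 2.69, 2.49 and 3.05 in 129S1-No1 and 0.26 in 129S1-No2, and the primary array had 2.30. In C57B6-No1 and 129S1-No1 every mHep array was below every eHep array, in 129S1-No2 the order was the opposite, and the primary level lay inside the eHep range. The mean was 0.09 ± 1.05 in mHep and 1.82 ± 1.36 in eHep (SD, n = 3 mice), and the difference of -1.73 ± 0.87 did not pass (limma, adjusted p = 0.426). Without 129S1-No2 it was -3.07 and passed (adjusted p = 0.00239). Against primary hepatocytes the difference was -2.21 ± 1.18 in mHep (adjusted p = 0.262) and -0.48 ± 1.18 in eHep (adjusted p = 0.81).

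Socs2 overlapped between the media. It had a lowest level of 0.80, a median of 2.07 and a highest level of 2.63 in mHep, a lowest level of 1.55, a median of 1.99 and a highest level of 2.17 in eHep, and 1.29 in primary hepatocytes. The primary level lay inside the mHep range and below all 7 eHep arrays. It was the only one of the 10 genes with a positive estimate against the primary array in both cultures, 0.80 ± 0.63 in mHep (limma, adjusted p = 0.434) and 0.55 ± 0.63 in eHep (adjusted p = 0.586), neither of which passed. Between the media it differed by 0.26 ± 0.46 (adjusted p = 0.854). The other Socs2 probe, A_52_P84037, was above background on all 7 arrays of each medium and dark on the primary array. Tested singly, it was higher in mHep than in eHep by 1.17 ± 0.39 (adjusted p = 0.255), and higher in each mouse. Against the primary array it differed by 2.80 ± 0.83 in mHep (adjusted p = 0.0845) and 1.63 ± 0.83 in eHep (adjusted p = 0.225), neither called.

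The STAT5 sequence was looked for in the RefSeq promoter windows of GRCm38.p6, which run from 250 bases before to 50 after each annotated start. The motif searched was TTCNNNGAA, which reads the same on both strands. Windows were given for 8 of the 10 genes, and not for Socs2 and Mup5. Of these 8, with 13 windows, Cish and Igfals held the motif in 3 windows, and 8.3% of all 32851 windows of this length held it at least once. The Cish window, on the plus strand of chromosome 9 at chr9:107296409-107296708, held it 2 times, at positions 1 and 12 after the start, as did 0.457% of all windows. The Igfals window at chr17:24877981-24878280, on the plus strand and 1 of 3 for that gene, held it at position -58 from the start. Both are printed with the motif in capitals, since these genes differed in their readout, Igfals being called lower than in primary hepatocytes in both cultures and Cish in neither.
Cish: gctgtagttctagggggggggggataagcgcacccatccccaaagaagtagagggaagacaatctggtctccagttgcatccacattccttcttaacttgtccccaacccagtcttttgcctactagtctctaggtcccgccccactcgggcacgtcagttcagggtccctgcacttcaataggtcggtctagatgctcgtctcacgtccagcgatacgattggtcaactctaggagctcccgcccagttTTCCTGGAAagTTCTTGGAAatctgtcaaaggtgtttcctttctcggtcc
Igfals: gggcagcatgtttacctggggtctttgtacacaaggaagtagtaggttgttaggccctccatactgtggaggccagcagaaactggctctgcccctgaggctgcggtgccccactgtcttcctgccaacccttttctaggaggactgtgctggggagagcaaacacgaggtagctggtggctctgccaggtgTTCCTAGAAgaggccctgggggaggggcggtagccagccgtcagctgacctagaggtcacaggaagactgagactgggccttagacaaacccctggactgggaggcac
Another Igfals window, starting at 24877594, held the motif at position -236. A match is a run of letters and not a measured binding site, and the windows of Ghr, Igf1, Stat5a, Stat5b, Mup3 and Mup4 had no match within these 300 bases, which says nothing of sites elsewhere.

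Igf1, which encodes the growth factor that carries much of the growth hormone effect to other tissues, was lower on every mHep array than on any eHep array. In mHep its levels were -5.03, -4.76 and -5.75 in C57B6-No1, -2.40, -2.18 and -3.40 in 129S1-No1 and -5.29 in 129S1-No2. In eHep they were 0.23, 0.49 and -0.41 in C57B6-No1, -0.89, -0.60 and -0.74 in 129S1-No1 and 2.0 in 129S1-No2, and the primary array had 8.70. The mHep arrays of C57B6-No1 and 129S1-No2 were dark. The order was therefore primary, eHep and mHep, with no overlap between neighbours. The mean was -4.38 ± 1.49 in mHep and 0.45 ± 1.40 in eHep (SD, n = 3 mice).

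With mouse as a block, the Igf1 difference between mHep and eHep was -4.83 ± 0.98 and missed the threshold (limma, adjusted p = 0.0815), although it was negative in all 3 mice. Raising dark readings to the lowest signal called above background on their array gave mHep a level at least 24-fold lower. The difference passed when any 1 mouse was left out, at -4.60 without C57B6-No1, -6.29 without 129S1-No1 and -3.60 without 129S1-No2 (adjusted p at most 0.00419). Over 18 alternatives the estimate ran from -6.31 to -2.94, and in 8 of them the difference missed the threshold (adjusted p up to 0.199). The arrays were scanned on an earlier and a later day, and within each of these the difference passed too, at -6.31 and -3.59. These fits share mice and arrays with the main one, C57B6-No1 being in both scans. Each rests on fewer mice, so its spread is largely borrowed from all genes. More of all genes were called without 129S1-No2 too, as given above. Passing in these fits is therefore not independent support. Against primary hepatocytes Igf1 was at least 7283-fold lower in mHep (-13.08 ± 1.37, adjusted p = 0.00322) and 304-fold lower in eHep (-8.25 ± 1.37, adjusted p = 0.00963), and both calls were kept without 129S1-No2 (adjusted p = 0.00581 in mHep and 0.00902 in eHep).

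The probe on NM_184052, another Igf1 transcript, was lower than in primary hepatocytes by a similar amount, with -13.78 ± 1.65 in mHep and -8.28 ± 1.64 in eHep (log2 ± SE, both called). The other two Igf1 probes read low on the primary array, at 0.15 and 0.47, were dark on all 7 mHep arrays and were called in mHep only, at adjusted p of 0.032 and 0.0484 against 0.0742 and 0.107 in eHep.

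Igf1 is also made by macrophages and by fibroblast-like cells, so their markers are given beside it. The macrophage gene Cd68 was -2.82 to -1.39 in mHep and -3.06 to 0.50 in eHep, above background on all 14 arrays and dark on the primary array. The macrophage gene Adgre1 and the Kupffer cell gene Clec4f were dark on all 14 cultured arrays and above background on the primary array. Ptprc, also among the macrophage markers, was above background on 1 of 7 mHep arrays and dark on all 7 eHep arrays and the primary array. Of the 4 endothelial markers, Stab2 was above background on all 14 cultured arrays, Kdr on 2 of 7 mHep and 3 of 7 eHep arrays, and Pecam1 and Cdh5 on none, and their summed signal was 0.069 to 0.382 in mHep, 0.0593 to 0.389 in eHep and 3.01 in primary hepatocytes. Over the 4 macrophage markers the summed signal was 0.182 to 0.43 in mHep, 0.134 to 1.45 in eHep and 2.73 in primary hepatocytes, and over the 4 stellate cell and fibroblast markers it was 0.0268 to 0.15 in mHep, 0.0558 to 0.489 in eHep and 0.244 in primary hepatocytes. Of the stellate cell and fibroblast markers at most 1 per array was above background in mHep, at most 2 in eHep and 0 on the primary array. Their part in the Igf1 levels was not tested.

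Igfals, the acid-labile subunit, is a liver-made target that needs growth hormone. It was above background on 2 of 7 mHep arrays and 2 of 7 eHep arrays, all 4 of them from 129S1-No1, and was not tested between the media. Those readings were -4.46 and -5.02 in mHep and -3.77 and -3.52 in eHep, against 4.12 in primary hepatocytes. It was at least 502-fold lower in mHep (-9.83 ± 1.58, limma, adjusted p = 0.0118) and at least 464-fold lower in eHep (-10.37 ± 1.57, adjusted p = 0.00722). Without C57B6-No1 the mHep call was lost (adjusted p = 0.0644).

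The receptors and binding proteins of Igf1 followed no single direction. Igfbp1, a liver-made binding protein, rose in mHep against eHep by 6.38 ± 0.89 (log2 ± SE, limma, adjusted p = 0.0318). It was the only 1 of 6 such genes called there, against 1.83% of all genes. Igf1r, the receptor, which adult hepatocytes barely express, was at least 5.16-fold higher in mHep and at least 5.06-fold higher in eHep than on the primary array, where it was dark, with log2 differences of 4.65 ± 0.84 and 4.62 ± 0.84 (adjusted p = 0.0191 and 0.0136). Igfbp2 was called lower in both cultures, with differences of -10.75 ± 1.69 in mHep and -10.67 ± 1.68 in eHep. Igfbp1 was also called lower, and Igfbp3 higher, in eHep than in primary hepatocytes, and both of these calls were lost without 129S1-No2, while those of Igf1r and Igfbp2 were kept.

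Mup4 and Mup5 were the 2 genes called between the media, both higher in mHep. Mup4 levels in mHep were 1.26, 1.37 and -0.53 in C57B6-No1, 6.05, 4.42 and 5.38 in 129S1-No1 and -1.35 in 129S1-No2. In eHep they were -3.0, -3.08 and -6.88 in C57B6-No1, -3.40, -4.01 and -4.17 in 129S1-No1 and -7.92 in 129S1-No2, and the primary array had 10.73. All 7 mHep arrays were above background and above every eHep array, 4 of the 7 eHep arrays were dark, and the primary array was above all 14. The mean was 1.54 ± 3.40 in mHep and -5.37 ± 2.22 in eHep (SD, n = 3 mice). Mup4 was at least 64-fold higher in mHep (6.91 ± 0.79, limma, adjusted p = 0.0189, higher in 3 of 3 mice).

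Mup5, like Mup4, was higher on every mHep array than on any eHep array. Its levels in mHep were -1.50, -1.27 and -2.19 in C57B6-No1, 3.47, 1.62 and 2.67 in 129S1-No1 and -3.24 in 129S1-No2, all above background. In eHep it was dark on all 7 arrays, with readings of -8.24 to -6.08, and in primary hepatocytes it had 10.40. It was at least 16.9-fold higher in mHep than in eHep (6.40 ± 0.82, adjusted p = 0.0275, higher in 3 of 3 mice). In fits on fewer mice, whose spread is largely borrowed from all genes, both genes were called as well. The differences were 7.08 for Mup4 and 7.10 for Mup5 without 129S1-No2, and 6.46 and 5.04 within the earlier scan. Both calls were lost with normexp background, with quantile scaling, with the percentile taken over probes seen on every array, with the authors' value table and without the mouse block, at adjusted p from 0.0667 to 0.312 for Mup4 and from 0.0879 to 0.249 for Mup5. With normexp the estimates were 4.17 for Mup4 and 2.78 for Mup5, and with dark readings raised to the background limit Mup5 was not called either (adjusted p = 0.0633).

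The main probe of Mup3 was above background in culture only on the 3 mHep arrays of 129S1-No1, with levels of -2.35, -3.76 and -2.90, while the 4 other mHep arrays and all 7 eHep arrays were dark. The primary array had 10.80. With 4 of 7 mHep arrays dark it was not tested between the media, and no test compared it with Mup4 or Mup5. Its other two probes were above background on 3 and 2 mHep arrays, again all from 129S1-No1, and on 1 eHep array each.

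**Figure D3:**
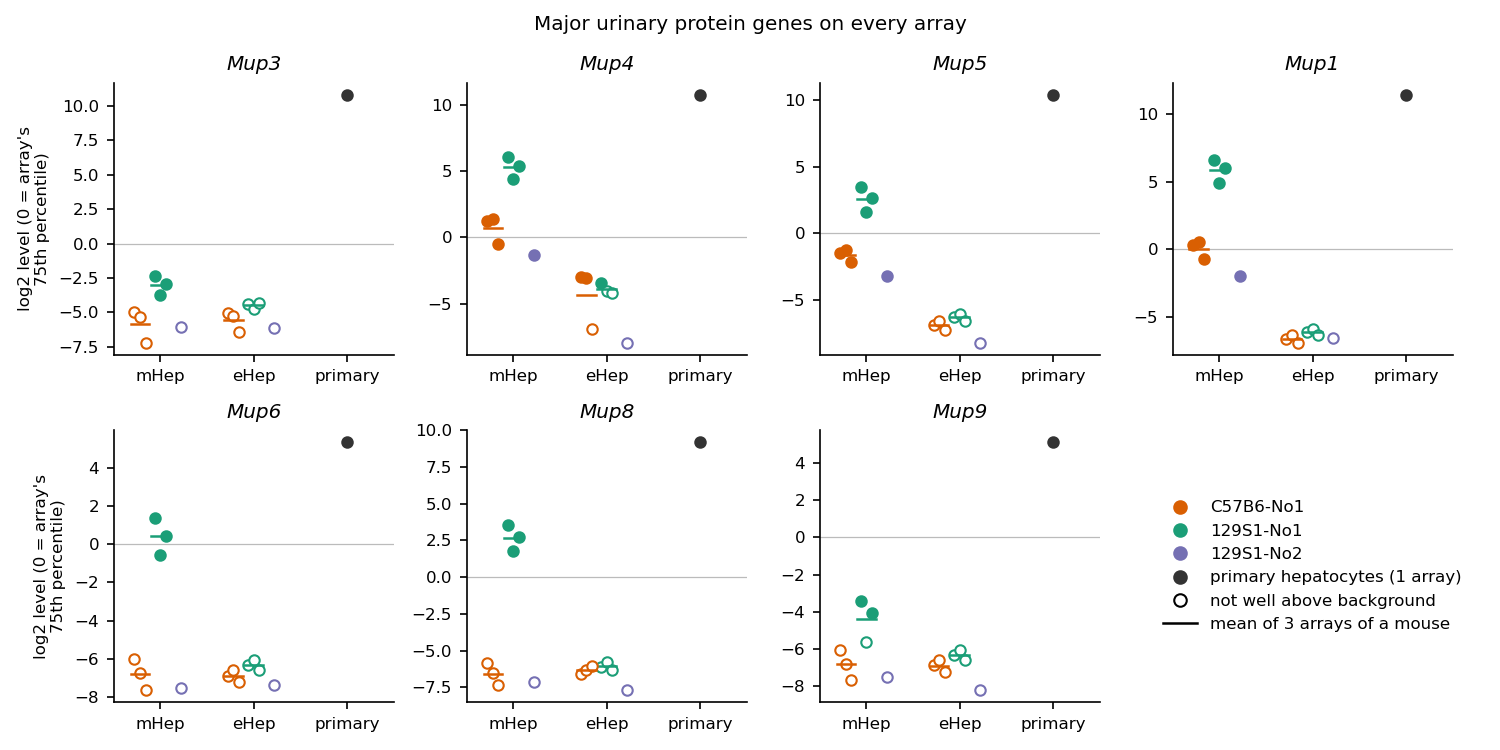
Log2 level of 7 major urinary protein genes on each of the 15 arrays, in mHep, eHep and primary hepatocytes, with 0 at the 75th percentile of the array. Colours mark the mice and open points are readings not well above background. Mup1, Mup4 and Mup5 are above background on all 7 mHep arrays, while Mup3, Mup6, Mup8 and Mup9 are so in 129S1-No1 alone among the cultures.

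The array held 4 more urinary protein genes, Mup1, Mup6, Mup8 and Mup9. Mup1 was above background on all 7 mHep arrays and dark on all 7 eHep arrays, with mHep levels of 0.34, 0.55 and -0.75 in C57B6-No1, 6.58, 4.94 and 6.0 in 129S1-No1 and -1.95 in 129S1-No2, and 11.42 in primary hepatocytes. Its difference of 7.74 ± 1.31 between the media missed the threshold (limma, adjusted p = 0.0528). Mup6 and Mup8 were above background in culture on the 3 mHep arrays of 129S1-No1 and on no other, at 1.39, -0.55 and 0.42 for Mup6 and 3.54, 1.78 and 2.74 for Mup8. The primary array had 5.32 for Mup6 and 9.17 for Mup8, so that in strain C57B6 these 2 probes read high in primary hepatocytes and dark in all 3 mHep arrays. Counting all 7 urinary protein genes, 3 were above background on each mHep array of C57B6-No1 and on that of 129S1-No2, 6 or 7 on each of 129S1-No1, 0 or 1 on each eHep array and 7 on the primary array. The Mup1 probe shares a stretch with Mup8, as printed above. The Mup8 probe was dark where the Mup1 probe read 0.34, 0.55 and -0.75. In culture it was above background only where Mup1 read 6.58, 4.94 and 6.0. Binding of the transcripts of 1 gene to the probe of the other was not tested.

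The promoter windows of the copies were alike. Over 300 bases of GRCm38.p6, those of Mup3 and Mup4 were identical at 83.0% of positions, those of Mup4 and Mup6 at 92.3%, and those of Mup3 and Mup9 at 71.7%.

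The size of the difference between the media was compared between the mice with 3 arrays per medium, as the change in C57B6-No1 minus that in 129S1-No1. This fit used 12 arrays, so its error is the spread between arrays of 1 mouse and not between animals, and strain and mouse cannot be told apart. Of the 10 genes 9 were tested and 2, Igf1 and Mup5, were called, against 16.6% of all genes, both with a lower change in C57B6-No1, against 6.29% of all 15743 genes called in that direction. None was called in the other, against 10.3% of all genes, with 2 at an unadjusted p under 0.05. The median over all genes was 0.26, and that of the 9 was -0.70.

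For Igf1, mHep minus eHep was -5.28 in C57B6-No1 and -1.92 in 129S1-No1, a difference of -3.37 ± 0.53 (limma, adjusted p = 0.00222). As the C57B6-No1 mHep readings were dark, the measured change there is limited by the background, and with dark readings raised to the background limit the difference was -2.71 and still called. It was not called with normexp background (-1.84) or with the mean of the Igf1 probes (-1.55). For Mup5 the changes were 5.27 in C57B6-No1 and 8.93 in 129S1-No1, a difference of -3.66 ± 0.60 (adjusted p = 0.0029). Mup4 changed by 5.02 in C57B6-No1 and 9.14 in 129S1-No1, which did not pass (-4.12 ± 1.33, adjusted p = 0.0576) but was called in 9 of 24 alternatives, quantile and median scaling and normexp among them. Mup5 was dark in eHep in both mice, so both changes have a background reading on the eHep side. The same holds for Mup1, which was called the same way (-5.29 ± 0.61, adjusted p = 4.17e-04). Mup6 and Mup8 were dark on all 6 arrays of C57B6-No1 and on the eHep arrays of 129S1-No1, so no difference is given for them. The C57B6-No1 mHep arrays lay on 2 slides. In 129S1-No1 all eHep arrays lay on 1 slide and all mHep arrays on another, so medium and slide cannot be told apart there. With slide as a block, which cannot separate them in that mouse, the differences were -3.27 for Igf1 and -3.60 for Mup5, both called.

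**Figure D4:**
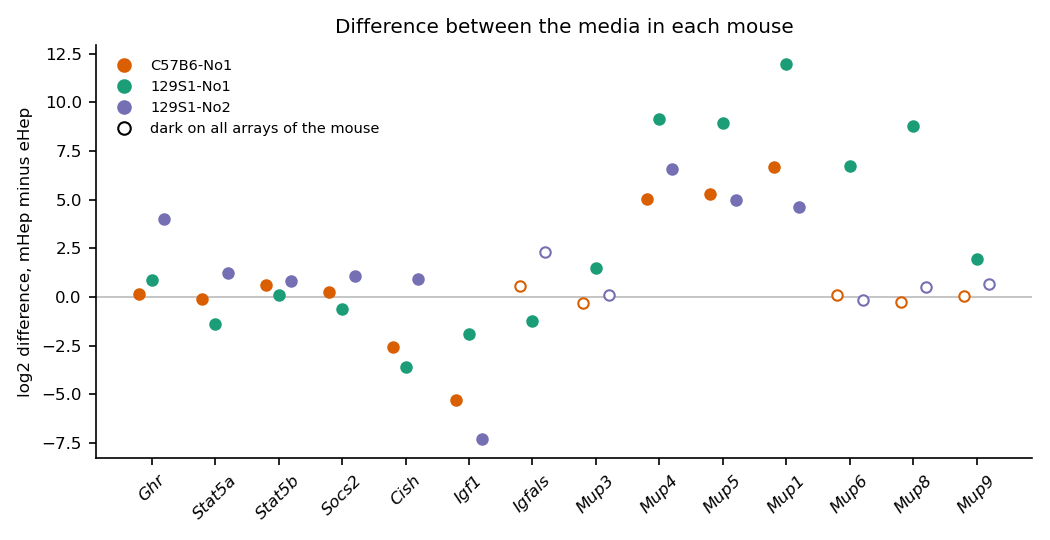
Log2 difference between mHep and eHep in each mouse for the 10 genes and 4 further urinary protein genes. Points are means over the arrays of a mouse, and open points are genes dark on all arrays of that mouse. Igf1 is negative and Mup1, Mup4 and Mup5 are positive in all 3 mice, and Cish is negative in C57B6-No1 and 129S1-No1 and positive in 129S1-No2.

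Against primary hepatocytes all 10 genes passed the filter, since each was above background on the primary array. Igf1, Igfals and Mup3 in mHep, and Igfals, Mup3, Mup4 and Mup5 in eHep, passed only through that array, where they were higher. For these the filter favoured a lower call, which the shares of all genes beside the counts do not remove. In mHep 5 of 10, Ghr, Igf1, Igfals, Mup3 and Mup5, were called lower, against 6.31% lower and 10.6% in either direction of all 14696 genes, and 0 were called higher, against 4.29%. In eHep 7 of 10 were called lower, these 5 with Mup4 and Stat5b, against 10.6% lower and 17.1% in either direction of all 14356 genes, and 0 higher, against 6.53%. At an unadjusted p under 0.05, 7 were lower in mHep and 7 in eHep, and 0 were higher in either. The median difference of the 10 was -7.06 in mHep and -7.44 in eHep, against -0.29 and -0.13 over all genes. Both sets of differences share the 1 primary array. Without 129S1-No2, 6 of 10 were called in mHep, where 13.2% of all genes were, and 6 of 10 in eHep, where 18.6% of all genes were. All 5 calls in mHep were kept then, at -5.14 for Ghr, -12.62 for Igf1, -9.74 for Igfals, -15.23 for Mup3 and -9.93 for Mup5, and Cish was called lower in addition (-2.77, adjusted p = 0.0439). In eHep the call of Stat5b was lost and the other 6 were kept, Mup4 at -14.82. The number called in mHep was 2 without C57B6-No1 (2.75% of all genes), the calls of Ghr, Igfals and Mup5 being lost, and 8 (30.9% of all genes) with the arrays of C57B6-No1 alone, the mouse of the same strain as the primary hepatocytes.

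Among the urinary proteins, Mup3 was by its main probe at least 33929-fold lower in mHep (-15.76 ± 1.28, limma, adjusted p = 0.00203) and at least 51570-fold lower in eHep (-16.19 ± 1.27, adjusted p = 0.00143). The size depended on the probe. Tested singly, A_51_P435858 differed by -14.22 ± 1.28 in mHep and -14.09 ± 1.28 in eHep. Probe A_52_P232507 differed by only -8.05 ± 1.45 in mHep and -8.53 ± 1.45 in eHep, and both probes were called in both cultures. Mup5 was 2299-fold lower in mHep (-11.17 ± 2.04, adjusted p = 0.0194) and at least 38947-fold lower in eHep (-17.57 ± 2.04, adjusted p = 0.00347). Mup4 was at least 37180-fold lower in eHep (-16.09 ± 2.59, adjusted p = 0.00873), and its difference of -9.18 ± 2.59 in mHep did not pass (adjusted p = 0.0717) but was called in 8 of 17 alternatives, without 129S1-No1 (-11.05) among them. Mup5, called higher in mHep than in eHep, was thus still called lower in mHep than on the primary array. Without C57B6-No1 that call was lost (adjusted p = 0.0886). With the arrays of the primary array's own scan only, mHep differed from it by -17.41 for Mup3, -11.67 for Mup4, -13.11 for Mup5 and -14.22 for Igf1. Of the 4 other urinary protein genes, Mup9 was called lower in mHep and all 4 in eHep, without 129S1-No2 too. Of all genes 6.31% were called lower in mHep and 10.6% in eHep. The called urinary protein genes of these 4 passed the filter only through the primary array, where they were higher, so the filter favoured that direction.

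**Figure D5:**
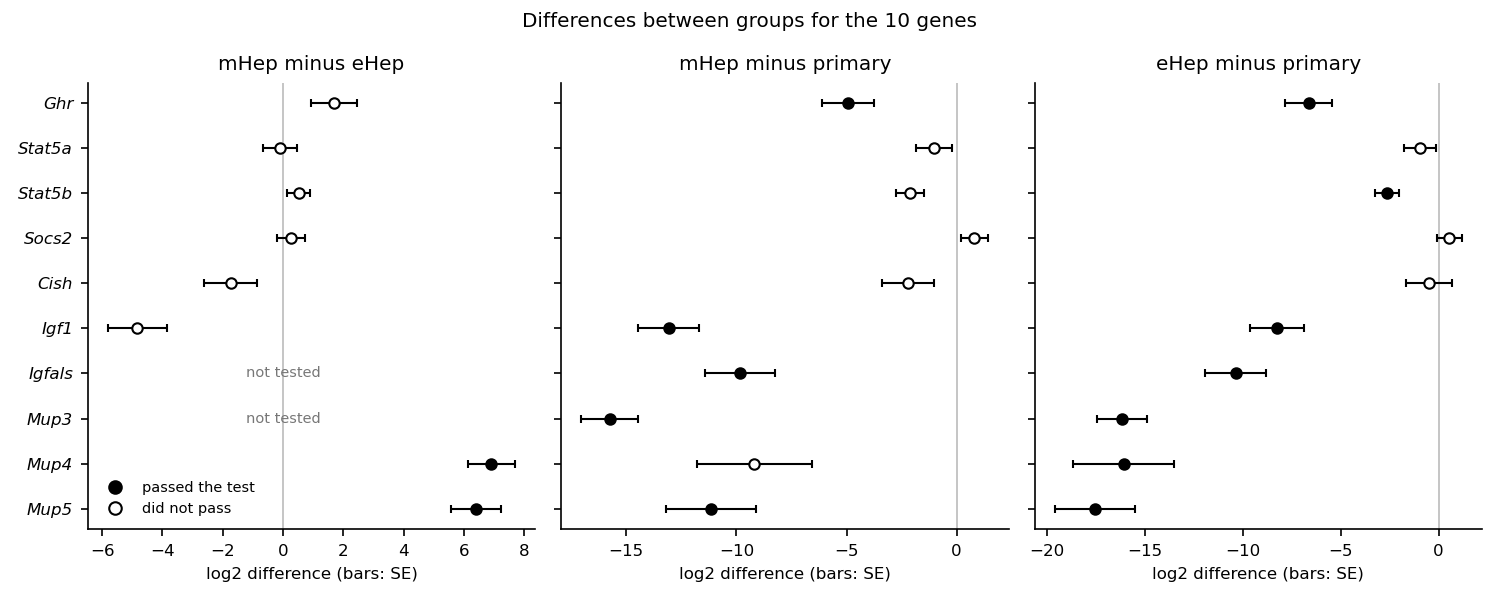
Log2 differences of the 10 genes for mHep minus eHep, mHep minus primary and eHep minus primary, with bars for the SE. Filled points passed the test and open points did not, and 2 genes were not tested between the media. Mup4 and Mup5 are the 2 genes called higher in mHep than in eHep, and Socs2 alone lies above 0 in both comparisons with the primary array.

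Few other genes of the receptor pathway were called between the 3 groups, at shares near those of all genes. Of 14 further genes of growth hormone receptor signalling, all tested, 0 were called between mHep and eHep by limma, against 1.83% of all genes. At an unadjusted p under 0.05, 2 were higher and 0 lower, and the median difference of the 14 was 0.03. Jak2, the kinase on the receptor, named here after its values were seen, differed by 0.08 ± 0.46 between the media and by 2.06 ± 1.05 between mHep and primary hepatocytes, neither called. Against primary hepatocytes 1 of 14, Prlr, was lower in mHep, against 6.31% of all genes, and 2 of 14, Prlr and Stat3, were lower in eHep, against 10.6%. Without 129S1-No2 the call of Stat3 was lost and those of Prlr were kept. Prlr, the prolactin receptor and a relative of Ghr that also signals through STAT5, differed by -5.85 ± 1.29 in mHep (adjusted p = 0.0352) and -5.34 ± 1.29 in eHep (adjusted p = 0.0343). Between the mice, the change was called higher in C57B6-No1 for 3 of the 14 and lower for 2, against 10.3% and 6.29% of all genes. It was higher for Socs1, an inhibitor of JAK kinases (4.46 ± 0.79, adjusted p = 0.00433), with 1.19 in C57B6-No1 and -3.27 in 129S1-No1. Ptpn6 also had a higher change in C57B6-No1, and Onecut1 and Bcl6, a STAT5-opposing repressor in liver, a lower one.

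Male-biased liver genes, which depend on pulsed growth hormone as the Mup genes do, were called higher in mHep in 4 of 11 cases, against 1.38% of all genes. Of 15 such genes 11 could be tested between the media and the 4 called were Cyp4a12a (5.39 ± 0.44, limma, adjusted p = 0.00695), Cyp2d9 (5.16 ± 0.60, adjusted p = 0.0192), Cyp4a12b (5.12 ± 0.56) and Ugt2b38 (4.90 ± 0.63), all enzymes of fatty acid or steroid and drug metabolism, and Cyp4a12a and Cyp4a12b are close copies that probes may not separate. Against primary hepatocytes 7 of 14 were called lower in mHep, against 6.31% of all genes, and 10 of 14 in eHep, against 10.6% of all genes. Without 129S1-No2, Moxd1, called lower in both cultures, lost both calls. Elovl3, a fatty acid elongase, was at least 4766-fold lower in mHep and dark on all 7 of its arrays, and at least 4039-fold lower in eHep. Hsd3b5, a steroid dehydrogenase of the male liver, was at least 2895-fold lower in mHep and at least 3635-fold lower in eHep. Elovl3 and Hsd3b5 passed the filter only through the primary array, where they were higher, so the filter favoured that direction.

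Female-biased genes were called higher in mHep too, where they were called. Of 18 listed, 16 were on the array and 8 were tested between the media, where 2 were called and both were higher in mHep, against 1.38% of all genes, Cyp3a41a (8.66 ± 1.01, limma, adjusted p = 0.0192) and Cyp2b13 (2.87 ± 0.44, adjusted p = 0.0396). Both belong to families of near-identical cytochrome P450 genes. Of the listed genes called between the media, all 7, Igfbp1 included, were called in the same direction without 129S1-No2. None of 8 was called between mHep and primary hepatocytes by limma, against 10.6% of all genes, nor was any at an unadjusted p under 0.05. In eHep 1 of 5, Cyp3a41a, was called lower, against 10.6% of all genes. The median difference between the media was 2.89 for the male-biased and 4.28 for the female-biased genes tested. For both lists the genes tested are those that were bright enough in at least 1 medium. Cyp2b13 and the male-biased Cyp4a12b passed the filter only through mHep, where they were higher, so the filter favoured that direction. The sex of the mice is not in the labels. Of 5 sex-chromosome genes Kdm5d alone was called, and only between the mice (-2.38 ± 0.64), where 16.6% of all genes were called. The Y-linked genes Ddx3y and Eif2s3y were above background on all 14 cultured arrays, Kdm5d on 7 of 7 mHep and 4 of 7 eHep arrays, Uty on 5 of 7 mHep and 2 of 7 eHep arrays, and Xist on 1 of 7 mHep and 1 of 7 eHep arrays. On the primary array Eif2s3y was above background and the other 4 were dark by their main probes. Another Xist probe, A_52_P362360, was above background on the primary array at -1.47 and dark on all 7 mHep and all 7 eHep arrays. The remaining Xist probes were dark on the primary array.

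For Ghr, Igf1 and Mup3 the genes with the most similar profile were looked up among 15379 candidates, by the root mean square difference of their centred levels over the 15 arrays, which share mice, media and the 1 primary array. Nearest to Ghr were Inhbe, Tcea3 and Psma8, at 0.49, 0.51 and 0.60, with 1.67 as the SD of the Ghr profile itself. Nearest to Mup3 were Ces3b, Slc22a7 and Hpd, at 0.85, 0.89 and 0.90, with a profile SD of 4.11. Nearest to Igf1 were Lin7a, Gls2 and Clec4g, at 1.84, 1.86 and 1.91, with a profile SD of 3.52.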

How the data were processed

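The scanner files gave a processed signal, an intensity background-subtracted, per the file headers, by Feature Extraction (Agilent, version 10.7.1.1 on 5 arrays and 10.7.3.1 on 10), and a flag for readings well above background. The authors' deposited value table held log2 values, was made in a way not given in the sources used here, and served as an alternative (r from 0.972 to 0.9999 with the same array's log2 signal). Spots of a probe were averaged and each array's 75th percentile was subtracted from its log2 signals. Genes entered a test when their probe was flagged in every array of at least 2 mice in 1 of the groups compared, or on the primary array. For the comparison of mice, every array of 1 mouse and medium was enough. Tests used limma 3.58.1 in R 4.3.3 with Benjamini-Hochberg adjustment over all genes tested, and were checked on simulated data with 200 changed genes. Per the labels, mHep and eHep pair by mouse. Deviations of the same mouse correlated at 0.56 (C57B6-No1), 0.54 (129S1-No2) and 0.40 (129S1-No1), against at most 0.0114 between mice. The genes, lists and tests were chosen with earlier results of these data known. All 10 genes are reported, with called genes of each list (1 is not reported here) and the 3 nearest profiles. Precision is limited by the number of arrays, and nothing says that the 3 arrays of a mouse were separate cultures. Alternatives changed background, scaling, filter, probe, spread, slide, scan, mouse block and left-out mice or arrays. Testing each other probe, and the listed genes without 129S1-No2, was added after the data were seen.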

Additional observations from a re-analysis of the deposited data

Results flagged for a closer look

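Each of the 10 genes was checked for an array standing apart within the 7 mHep and the 7 eHep arrays, 20 groups in all. The level used marks about 5% of groups of independent readings by chance, and 2 were marked. Arrays of the same mouse are not independent, so that share does not hold here. Both marks fell on the only eHep array of 129S1-No2, where array and mouse cannot be told apart. Ghr stood at -1.91 on the eHep array of 129S1-No2, below the 0.90, 1.02 and 0.87 of 129S1-No1 and the 0.96, 0.99 and 1.17 of C57B6-No1, a gap of 0.901 of the whole range of the 7 arrays. Its 4 other probes did not all share this. Probe A_52_P680941 read -3.65 there and -1.02 to -0.47 on the other eHep arrays, and A_51_P499854 read -1.59 against -0.47 to 1.12, while A_52_P633550 and A_52_P54106 were above background on it and dark on 5 of the other 6 eHep arrays. Cish stood at 0.258 on the same array, a gap of 0.606 of the range.

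The change between the media differed between the 2 mice with 3 arrays per medium for Igf1, by -3.37 for C57B6-No1 minus 129S1-No1, and for Mup5, by -3.66. These 2 mice differ in strain.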

How the results depend on the processing

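Of the 10 genes, the number called between mHep and eHep was 2. It was 0 with normexp background, with quantile scaling, with the percentile over probes seen on every array, with the authors' value table and with no replicate block, each with 3 of the genes at an unadjusted p under 0.05 by limma. It was 1 with dim readings raised to the background limit, 4 with slide as a block, 4 for the later scan only, 5 when each of the 14 arrays counted as a sample, and 3 to 4 without 1 mouse (4 without 129S1-No2). Mup4 and Mup5 changed no direction under any of these. The number called for mHep against primary hepatocytes was 5, against 9 with slide as a block, 8 with C57B6-No1 alone, and 2 to 6 without 1 mouse, the lowest without C57B6-No1. For eHep against primary hepatocytes it was 7 and stayed at 6 to 8 under every alternative. For the change in C57B6-No1 against that in 129S1-No1 it was 2, against 1 with the mean of all probes, 4 for the later scan only and 2 to 3 without 1 array. The share of all genes called varied widely with these settings too, over the ranges given in the next paragraph. A higher or lower count is therefore not by itself a result about the 10 genes.

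Estimates that turned their sign were not called. Stat5a between the media became 0.0104 with normexp, 0.023 with probes seen on every array, 0.55 without 129S1-No1 (-0.74 without 129S1-No2) and 0.90 within the earlier scan. Stat5b became -0.14 with the mean of its probes and -0.62 with probe A_51_P281938, and Socs2 -0.16 without 129S1-No2 (0.68 without 129S1-No1) and -0.24 for the later scan only. Cish in eHep against primary hepatocytes became 0.0876 with normexp, 0.30 without 129S1-No2 (-0.94 without 129S1-No1) and 0.15 with C57B6-No1 alone, and Socs2 between mice -0.25 with probe A_52_P84037. Of the other estimates of single genes, 643 kept direction and side of the threshold, 46 gained and 34 lost the call. Their causes were not tested. Over all genes the share called between the media, 1.83% here, lay between 0.719% and 35.2%, or at 0.0137% with no replicate block. It lay between 2.75% and 50.4% for mHep against primary hepatocytes (10.6% here), between 6.65% and 51.2% for eHep against them (17.1% here), and between 3.87% and 35.9% for the change between mice (16.6% here). Fits on single arrays, which gave the high shares between the media, count the arrays of a mouse as separate samples. The single primary array, the single pair from 129S1-No2 and dark readings limit the fold changes given.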
